A study of Rattus norvegicus with 2 samples.

Results

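R-spondins, their Lgr receptors and a set of stem cell and Wnt feedback genes were followed in single cells of the fetal rat colon. The 10 listed genes were looked up by symbol in the gene table of the deposited matrices, and 9 of the 10 were found among 28116 symbols. They are the ligands Rspo1, Rspo2 and Rspo3 and, on the receiving side, Lgr4, Lgr5, Rnf43, Axin2, Ascl2 and Olfm4. Znrf3 was not analysed here. The 2 groups were a maternal obesity group and a control group, each wild type (WT), sampled at E19.5, late in gestation, and represented by 1 library of dissociated colon (replicate 2 and replicate 1 of the labels). How the mothers were made obese, how many fetuses went into a library and which stretch of colon was taken are not given in the sources used here. Each group being 1 library, no test compares them and no value here has a replicate check. Intervals are exact, at 95%, and cover counting error only.

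R-spondins are secreted proteins that bind Lgr4 and Lgr5 on a receiving cell and, with them, take the membrane ubiquitin ligases Rnf43 and Znrf3 off the cell surface. Those ligases otherwise clear the Frizzled receptors for Wnt, so an R-spondin makes a cell more sensitive to Wnt. In the adult gut the mesenchyme beneath the crypts is known as the main source of R-spondins, and epithelial stem cells at the crypt base as the main responders.

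The maternal obesity library held 9714 barcodes with 120811946 UMIs, the tags that count single transcripts, and the control library 8903 barcodes with 103013814 UMIs. After filtering, 7102 maternal obesity cells and 6819 control cells were left, and 80 of the kept barcodes occurred in both libraries, about 1% of each. Epithelial-like cells numbered 1294 in maternal obesity and 2586 in control, with a median of 24344 and 16693 UMIs per cell. Mesenchymal cells numbered 3024 and 1888, with medians of 8379 and 8300 UMIs. Levels are CPM, the UMIs of a gene per 1000000 UMIs of its class, and a difference is named higher or lower at 1.5-fold or more in genes with at least 20 UMIs over both libraries.

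Genes that mark position along the gut differed between the libraries, and their values stand here because they touch every comparison that follows. They were chosen after the leading genes of the clusters had been seen. In epithelial-like cells Hoxb13, a homeobox gene of the hind end of the body, was at 26.4 CPM in maternal obesity and 146 CPM in control. Ccl25, a chemokine known from the small intestine, was at 16.8 CPM in maternal obesity and 1.11 CPM in control, and Cps1, a urea cycle enzyme of the fetal and small intestinal epithelium, at 16.8 and 0.396 CPM. In mesenchymal cells the posterior gene Hoxd13 was at 11.2 CPM in maternal obesity and 28.2 CPM in control, while Hoxc9, from a more anterior position in its cluster, was at 7.24 and 1.89 CPM. The part of this difference in position in the results on R-spondins and stem cell genes was not tested. Values are also given separately for epithelium high and low in Hoxb13, but position genes still differed between the libraries within each side.

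The R-spondins came from partly different senders, with fibroblast-like cells and unsorted mesenchyme shared by Rspo2 and Rspo3, and epithelium was not among them. Rspo1 UMIs came mostly from mesothelium-like cells, the outer lining of the gut, Rspo2 UMIs from fibroblast-like cells, neurons and unsorted mesenchyme, and Rspo3 UMIs from fibroblasts, muscle and other mesenchyme. In epithelial-like cells the 3 ligands had 4, 1 and 2 UMIs in maternal obesity (Rspo1, Rspo2 and Rspo3) and 2, 0 and 2 UMIs in control, among class totals of 39007321 and 53040195 UMIs. The count of 0 for Rspo2 allows up to 0.0566 CPM.

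Rspo1 (ENSRNOG00000009656) stood at 237 CPM in mesothelium-like cells of the maternal obesity library (interval 199 to 281, 136 UMIs in 31 of 44 cells) and at 76.5 CPM in those of control (58.2 to 98.6, 59 UMIs in 23 of 69 cells). The 2 intervals did not overlap, but 44 cells are under the minimum for a ratio between libraries, and 1 maternal obesity cell held 21 of the UMIs. That minimum is 50 cells per library for a class or cluster and 30 for an epithelial sub-cluster. Mesothelium-like cells were named from Upk3b, Msln, Wt1 and other lining genes and made up 0.62% of cells in maternal obesity and 1.012% in control, yet held 64.8% of all Rspo1 UMIs in maternal obesity and 78.7% in control. In every other mesenchymal class Rspo1 stayed below 2 CPM, near the 1.46 and 1.42 CPM of macrophage-like cells and so not separated from them. Enteric neuron-like and enteric glia-like cells lay lower than macrophage-like cells, with 0 Rspo1 UMIs in both libraries. Rspo1 was at 1.86 CPM in fibroblast-like cells of maternal obesity and 0.448 CPM in those of control. In smooth muscle-like cells it had 16 UMIs in maternal obesity (1.92 CPM) and 2 UMIs in control (0.192 CPM).

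Rspo2 (ENSRNOG00000037687) was concentrated in 1 of the 2 fibroblast-like clusters. That cluster, C3, is led by Shisa3, Col14a1, Dcn and Adamdec1, and there Rspo2 was at 36.4 CPM in maternal obesity (30.2 to 43.4) and 10.3 CPM in control (3.78 to 22.4). That is 3.53-fold (1.57 to 9.80), on 122 and 6 UMIs, where 19.4% of genes in C3 were at least 1.5-fold higher. In the other fibroblast-like cluster, C2, led by Clec3b, Mfap5 and Fmo1, it was at 4.09 CPM in maternal obesity (2.38 to 6.54) and 4.24 CPM in control (1.70 to 8.74), so the clusters stood apart in maternal obesity, while in control their intervals overlapped. C3 held 50.2% of the library's Rspo2 UMIs in maternal obesity (122 of 243) and 13.3% in control (6 of 45). Subepithelial fibroblast-like cells had 10 Rspo2 UMIs in maternal obesity (5.40 CPM) and 4 in control (12.4 CPM, 3.39 to 31.8). The neuron-like cluster C29, with Stmn2, Ina and Prph in the lead, was another source. It had 37 UMIs in maternal obesity (14.2 CPM, 9.99 to 19.6), 8 of them in 1 cell, and 12 in control (9.57 CPM, 4.95 to 16.7). These intervals overlap. Unsorted mesenchyme held 17.3% of the library's Rspo2 UMIs in maternal obesity (42 of 243) and 13.3% in control (6 of 45), with 28 and 3 of them in the dividing cluster C17. The other neuron-like cluster, C18, led by Hes5 and Gal, had 1 and 0 UMIs. Enteric glia-like and macrophage-like cells had no Rspo2 UMI in either library.

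Rspo3 (ENSRNOG00000011568) was the broadest of the ligands across the mesenchyme. In maternal obesity its level ran from 72.8 CPM in fibroblast-like cluster C2 and 69.3 CPM in the unsorted cluster C30 down to 10.5 CPM in the unsorted cluster C24, and the first 2 overlap in their intervals. In control the order differed: fibroblast-like C3 at 41.2 CPM, C30 at 31.6 CPM, C2 at 31.5 CPM and smooth muscle-like C15 at 30.96 CPM overlapped, and C24 was at 5.11 CPM. C30 is led by Penk and Gdf10, had 4 markers of the pacemaker cells of the gut (interstitial cells of Cajal) above the other mesenchyme, and could not be sorted into 1 class. C24, at the low end, had 3 such markers higher and Kit, a pacemaker marker, among its leading genes. Its mean log2 difference for that list was larger, at 1.90 against 1.28 in C30. Subepithelial fibroblast-like cells, the layer next to the epithelium, had 4 Rspo3 UMIs in 235 cells of maternal obesity (2.16 CPM) and 0 in 58 cells of control, which allows up to 9.33 CPM. In maternal obesity that was below each of the other mesenchymal classes. The class that held most Rspo3 UMIs was the fibroblast-like class in maternal obesity, with 42.1% against 17.3% in control, and smooth muscle-like cells in control, with 19.9% of the UMIs in maternal obesity and 62.5% in control. These shares follow the number of cells caught per class as well as the level per cell.

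**Figure D1:**
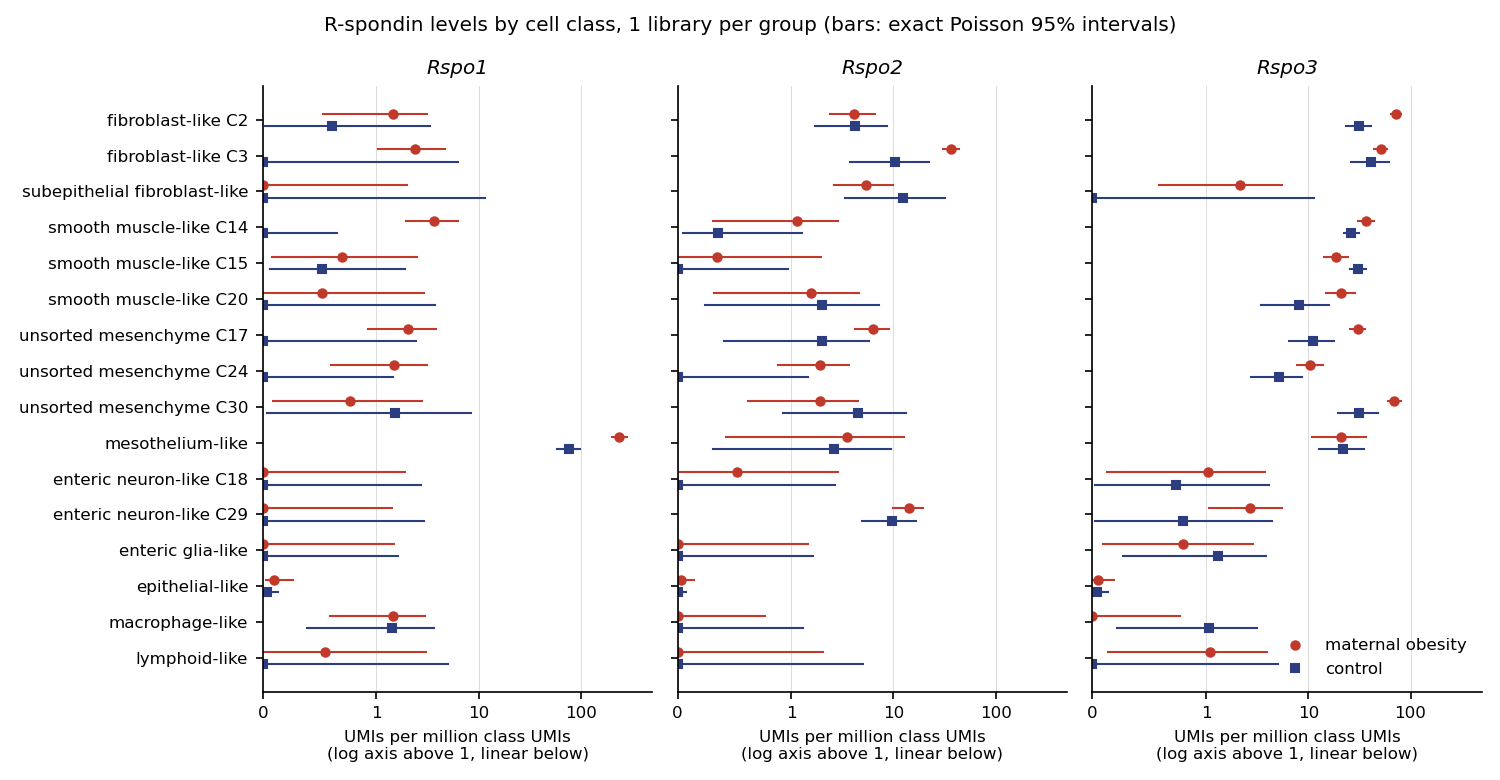
Rspo1, Rspo2 and Rspo3 in CPM of the class (horizontal axis, logarithmic above 1 and linear below) for 16 cell classes or clusters, maternal obesity as red circles above control as blue squares, with exact Poisson 95% intervals. Rspo1 stands out in mesothelium-like cells, and Rspo3 is spread over the mesenchyme except the subepithelial layer. In maternal obesity Rspo2 stands out in fibroblast-like C3 and neuron-like C29, while in control both overlap with subepithelial fibroblast-like cells.

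**Figure D2:**
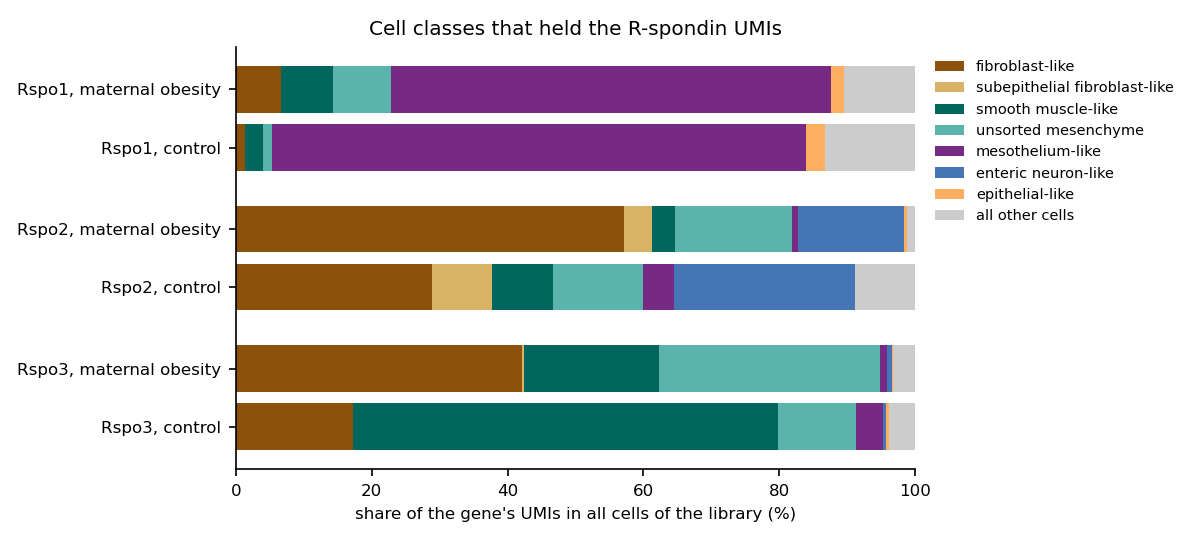
Share of each R-spondin's UMIs (%) by cell class, 1 bar per gene and library, maternal obesity above control. The mesothelium-like class holds 64.8% and 78.7% of Rspo1 UMIs, and the fibroblast-like class 42.1% and 17.3% of Rspo3 UMIs.

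Between the libraries, the summed R-spondins were higher in mesenchymal cells of maternal obesity. They had 1464 UMIs in maternal obesity and 511 in control, 48.8 and 27.6 CPM, a 1.77-fold difference (1.60 to 1.96). Each of the 3 ligands was at least 1.5-fold higher, beside 22% of 13590 measured genes that were at least 1.5-fold higher in the same cells (5.56% were lower). Rspo2 was 4.27-fold higher (2.89 to 6.55), with 201 UMIs in maternal obesity and 29 in control. Rspo1 was 1.80-fold higher (1.35 to 2.44) with 184 and 63 UMIs, and Rspo3 1.59-fold higher (1.42 to 1.78) with 1079 and 419 UMIs. Of these Rspo1 UMIs, 136 and 59 lay in mesothelium-like cells, which are under the minimum for a ratio between libraries. The pooled Rspo1 ratio thus rests mostly on that class. The median of all genes lay at a log2 ratio of 0.16 in these cells, and with totals scaled by the median gene Rspo3 stood at a log2 ratio of 0.52, which is under 1.5-fold. Equal weight was also given to each of the 9 mesenchymal clusters of at least 50 cells, which leaves out the mesothelium-like one. Rspo2 was then at a log2 ratio of 0.72, past 1.5-fold but below the lower end of its pooled interval. Rspo1 was then at 2.30, but outside mesothelium-like cells its levels are not separated from those of macrophage-like cells. With unsorted clusters left out, Rspo3 was at 0.55, also under 1.5-fold, and Rspo2 at 2.38.

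The difference was not shared by all mesenchyme. In fibroblast-like cells Rspo3 was at 63.1 CPM in maternal obesity and 34.0 CPM in control, 1.85-fold higher (1.45 to 2.39), with 18.1% of 11238 genes at least 1.5-fold higher in the same cells. It was seen in 24.9% of fibroblast-like cells of maternal obesity and 14.05% of those of control, and in 13.8% and 8.70% after thinning each cell to 3000 UMIs. Of the 2 fibroblast-like clusters, C2 had Rspo3 at 72.8 CPM in maternal obesity and 31.5 CPM in control (2.31-fold, 1.72 to 3.17, beside 19.1% of genes past 1.5-fold upwards), and C3 at 51.0 and 41.2 CPM (1.24-fold, 0.803 to 1.98). In unsorted mesenchymal cells Rspo3 was 2.89-fold higher (2.15 to 3.95), at 31.2 CPM in maternal obesity and 10.8 CPM in control, and it was at least 2-fold higher in each of the 3 clusters C17, C24 and C30 that make up this group. Beside it 18.2% of 12080 genes were at least 1.5-fold higher in these cells, and 16.8%, 21% and 18% in C17, C24 and C30. In smooth muscle-like cells it was at 26.9 CPM in maternal obesity and 26.4 CPM in control, 1.02-fold (0.852 to 1.22), with 18.3% of 11731 genes at least 1.5-fold higher and 5.26% lower. Within muscle the clusters went different ways. C14 was at 36.7 CPM in maternal obesity and 26.5 CPM in control, and C20, led by Krt17 and Crabp1, was at 20.9 and 8.07 CPM (2.60-fold, 1.199 to 6.42, beside 18% of genes higher). C15 was at 18.8 CPM in maternal obesity and 30.96 CPM in control, 0.606-fold (0.430 to 0.843), beside 6.84% of genes at least 1.5-fold lower. The posterior gene Hoxd13 was at 11.8 CPM in maternal obesity and 44.3 CPM in control in C15, at 17.5 and 35.5 CPM in C14, at 4.57 and 3.63 CPM in fibroblast-like C2, and at 1.49 and 18.9 CPM (5 and 11 UMIs) in fibroblast-like C3. Over all fibroblast-like cells it was at 3.19 CPM in maternal obesity and 7.61 CPM in control. The part of position in these Rspo3 values was not tested.

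Other niche genes of the mesenchyme were described as a list. Of 22 listed, 20 had enough UMIs, of which 10 were at least 1.5-fold higher and 2 lower in maternal obesity, with a median log2 ratio of 0.58 beside 0.16 over all 13590 measured genes, of which 22% were higher and 5.56% lower. Pdgfra, the receptor that marks fibroblasts, was at 122 CPM in maternal obesity and 25.4 CPM in control, Sfrp2, a secreted Wnt binding protein, at 34.0 and 5.68 CPM, and Bmp4, a signal that opposes stemness in the gut, at 129 and 47.0 CPM. Grem1, a secreted blocker of Bmp signals, was lower, at 40.1 CPM in maternal obesity and 97.7 CPM in control (0.410-fold). The 2 most abundant members hardly differed: the mesenchymal transcription factor Foxf1 was 1.13-fold and the surface protein Cd81 1.03-fold. Pdgfra, Foxl1, Wnt5a, Frzb, Nrg1 and Bmp5 also served to name fibroblast clusters. The fibroblast-like and subepithelial clusters held 916 and 235 of the 3024 mesenchymal cells in maternal obesity and 299 and 58 of the 1888 in control, and their part in the pooled values of these genes was not tested.

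Of the receptors, Lgr4 (ENSRNOG00000005715), the broadly expressed one, was detected throughout the epithelium and in much of the mesenchyme. It was at 23.4 CPM in epithelial-like cells of maternal obesity and 27.0 CPM in those of control, 0.866-fold (0.796 to 0.941), and at 13.0 and 12.4 CPM in mesenchymal cells. No epithelial sub-cluster with at least 30 cells lacked it. In control its highest level was in E11, led by Atp12a, Fxyd4 and Slc37a2, with 148 UMIs in 151 cells (82.1 CPM, 69.4 to 96.5). E11 had only 9 cells in maternal obesity, with 21 Lgr4 UMIs. In E11 Lgr5 and Axin2 had 0 UMIs in both libraries, with limits of 20.1 CPM in maternal obesity and 1.66 CPM in control. In E10, led by Krtap3-1, Adora2b and heat shock genes, Lgr4 was at 29.1 CPM in maternal obesity and 41.7 CPM in control, again with no Lgr5 UMI. Its lowest level was in the goblet-like sub-cluster E3, at 8.18 and 10.6 CPM. In smooth muscle-like cells Lgr4 was at 19.7 CPM in maternal obesity and 14.8 CPM in control. Muscle thus held both a ligand and a receptor of the family. In fibroblast-like cells Lgr4 had 69 UMIs in maternal obesity (9.18 CPM) and 7 in control (3.13 CPM).

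Lgr5 (ENSRNOG00000004221), the receptor that marks adult crypt stem cells, was rare. Epithelial-like cells had 123 Lgr5 UMIs in maternal obesity and 131 in control, 3.15 and 2.47 CPM, a 1.28-fold difference (0.990 to 1.65) whose interval includes 1. It was seen in 93 cells of maternal obesity (7.19%) and 108 of control (4.18%). The cells differed in depth, and after thinning to 3000 UMIs the shares were 13 of 1248 cells, 1.04% (0.556 to 1.77), in maternal obesity and 19 of 2450 cells, 0.776% (0.468 to 1.21), in control. Averaged over all possible thinnings they were 0.684% and 0.656%. Macrophage-like cells, which should lack Lgr5, had 1 cell with a UMI in each library after thinning, 0.216% of 462 in maternal obesity and 0.328% of 305 in control. Macrophage-like cells had medians of 8240 and 7063 UMIs before thinning. On the summed UMIs the epithelial level lay above that of macrophage-like cells, which had 1 Lgr5 UMI in each library, 0.209 CPM (0.00528 to 1.16) in maternal obesity and 0.356 CPM (0.00901 to 1.98) in control. The thinned shares, which rest on 1 macrophage-like cell in each library, overlap in their intervals. No difference in Lgr5 between the libraries was detectable at this depth in the pooled epithelium.

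On the summed counts Lgr5 was unevenly spread over the epithelial sub-clusters. In control, 60.3% of epithelial Lgr5 UMIs lay in sub-cluster E0, a cycling sub-cluster led by Mptx1, Retnlb and Best2 that held 15.5% of epithelial-like cells. In maternal obesity 43.9% lay in E4, led by Chgb, Chga, Cps1, Defa8, Gcg and Ccl25, with 17.9% of the cells. E4 was deep and held 10396930 of the 39007321 epithelial UMIs of that library. Its cycling markers together were at 2701 CPM in maternal obesity and 2430 CPM in control, beside 2779 and 2630 CPM in E0. Lgr5 stood at 4.50 CPM in E0 of maternal obesity and 7.41 CPM in E0 of control, and at 5.19 CPM in E4 of maternal obesity and 2.68 CPM in E4 of control. In maternal obesity the highest level was in E1, at 5.63 CPM on 3 UMIs in 31 cells, and E2 and E6 had 17 and 13 Lgr5 UMIs. Goblet-like E3 had no Lgr5 UMI in maternal obesity and 2 in control.

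Cells with an Lgr5 UMI also carried more of the other stem and feedback genes, in both libraries. The 93 maternal obesity cells and 108 control cells with an Lgr5 UMI had Ascl2, the transcription factor known to keep intestinal stem cells in their state, at 22.8 CPM and 22.0 CPM. Cells without one had 4.25 and 3.56 CPM. Axin2 was at 15.8 CPM in maternal obesity cells with Lgr5 and 4.10 CPM in those without, and at 8.62 and 2.99 CPM in control cells with and without it. Rnf43 was at 7.80 CPM with and 4.07 CPM without Lgr5 in maternal obesity, and at 5.004 and 2.77 CPM in control, where the intervals overlap. Olfm4 was at 71.9 CPM in maternal obesity cells with Lgr5 and 37.7 CPM in those without, and at 150 and 39.1 CPM in control. Lgr4 did not, at 17.99 CPM with and 24.1 CPM without Lgr5 in maternal obesity, and 22.2 and 27.4 CPM in control. The 10 cycling markers together were at 2396 CPM with and 1609 CPM without Lgr5 in maternal obesity, and 2562 and 1285 CPM in control. Cells with an Lgr5 UMI were deeper, at a median of 42166 UMIs in maternal obesity against 23234 in cells without, and 32150 against 16376 in control, and the part of depth and of the cell cycle in these differences was not tested.

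**Figure D3:**
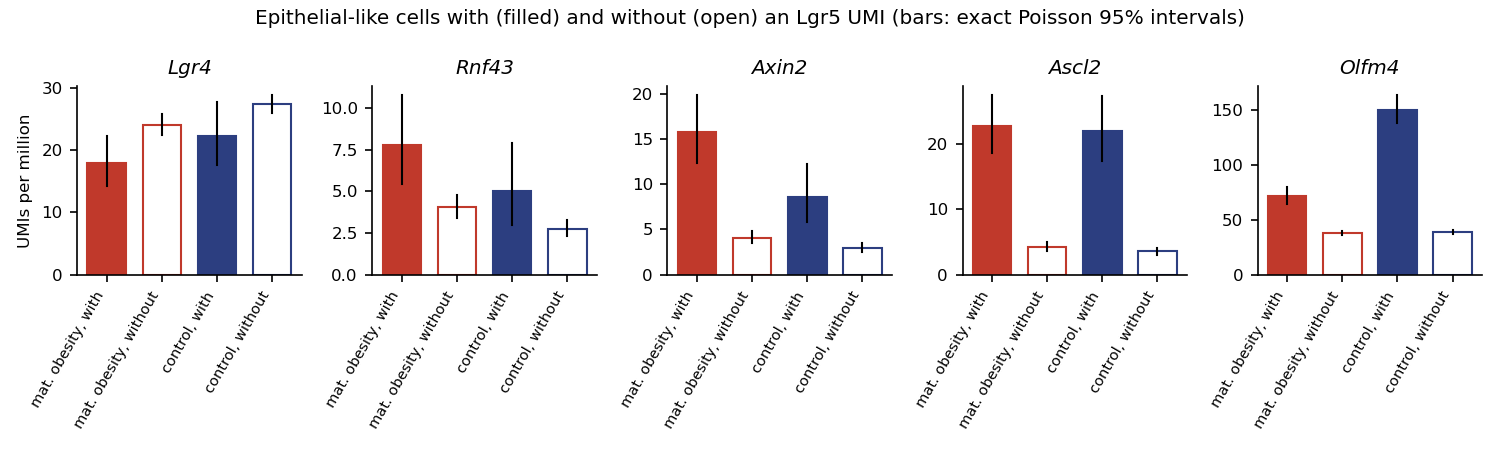
Levels in CPM (vertical axes from 0) of the other receiving genes in epithelial-like cells with an Lgr5 UMI (filled bars) and without (open bars), maternal obesity in red left of control in blue, with exact Poisson intervals. Ascl2, Axin2 and Olfm4 are higher in cells with Lgr5 in each library, Rnf43 overlaps in control, and Lgr4 is not higher.

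Axin2 (ENSRNOG00000055010) is a negative regulator of Wnt signalling that the pathway itself switches on. Its promoter is shown because it was the only one of the 7 matched members' promoters with the TCF/LEF core motif CTTTGA, or TCAAAG on the other strand, in the window from 250 bases before to 50 after the start (RefSeq, GRCr8). Of 33469 promoter windows of that length 16.1% hold the motif on either strand. The Axin2 window, chr10:94398535-94398834 on the plus strand, has it at 232 and at 132 bases before the start. The promoter of Ascl2, chr1:207580807-207581106 on the minus strand, is given beside it as one with no match, which says only that these letters are not in this window. Capitals mark the motif.
Axin2: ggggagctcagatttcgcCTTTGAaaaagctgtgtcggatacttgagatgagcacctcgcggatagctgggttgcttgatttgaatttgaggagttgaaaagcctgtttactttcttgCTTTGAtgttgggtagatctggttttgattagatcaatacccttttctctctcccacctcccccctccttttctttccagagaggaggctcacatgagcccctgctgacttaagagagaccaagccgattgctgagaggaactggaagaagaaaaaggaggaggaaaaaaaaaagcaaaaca
Ascl2: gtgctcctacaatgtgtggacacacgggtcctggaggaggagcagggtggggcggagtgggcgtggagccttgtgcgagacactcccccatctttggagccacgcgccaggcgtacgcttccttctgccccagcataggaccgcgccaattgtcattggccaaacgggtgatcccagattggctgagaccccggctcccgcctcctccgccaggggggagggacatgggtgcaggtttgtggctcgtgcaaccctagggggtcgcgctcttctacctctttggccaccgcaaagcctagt
In epithelial-like cells Axin2 had 214 UMIs in maternal obesity and 179 in control, 5.49 and 3.37 CPM, and was 1.63-fold higher (1.33 to 1.99). Its highest sub-cluster in maternal obesity was E4, at 9.81 CPM there against 5.74 CPM in E4 of control. In control E0 was highest, with Axin2 at 5.32 CPM in E0 of maternal obesity and 6.56 CPM in E0 of control. The intervals of several other sub-clusters overlapped with the highest one, among them E0, E2 and E6 in maternal obesity and E1, E2, E4, E6 and E9 in control. Axin2 was not an epithelial gene alone. Mesenchymal cells had it at 9.24 CPM in maternal obesity and 7.47 CPM in control (1.24-fold, 1.006 to 1.53), with 15.01 and 8.26 CPM in the unsorted cluster C24, 9.25 and 16.5 CPM in the dividing cluster C17, and 26.2 CPM (15 UMIs) and 6.48 CPM (5 UMIs) in mesothelium-like cells. In each library the mesenchymal level was above the epithelial one.

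Rnf43 (ENSRNOG00000007606), the ligase that R-spondins remove and that Wnt signalling also switches on, was 1.54-fold higher in epithelial-like cells (1.24 to 1.93), with 176 UMIs in maternal obesity and 155 in control, 4.51 and 2.92 CPM. In mesenchymal cells it had 13 and 9 UMIs. Ascl2 (ENSRNOG00000020434) was at 6.43 CPM in maternal obesity and 4.81 CPM in control, 1.34-fold (1.12 to 1.60). Its highest sub-cluster was E0 in both libraries, at 17.99 CPM in maternal obesity (44 UMIs) and 14.9 CPM in control (159 UMIs). In maternal obesity E2, led by fetal haemoglobin genes, Agmat and Otc, overlapped with it at 13.4 CPM, against 4.77 CPM in E2 of control. E1 of maternal obesity overlapped with it as well, on 8 UMIs in 31 cells (6.48 to 29.6 CPM). It was at or below 1 CPM in goblet-like E3 and in E7, with E7 led by Postn, Ttr and Igfbp2. Of the 6 measured receiving genes, 2 were thus at least 1.5-fold higher in the pooled epithelium (Axin2 and Rnf43) and 0 lower, beside 11.8% of 13445 genes higher and 11.9% lower. With totals scaled by the median gene, or with cells weighted equally, Axin2 was the only one of the 6 past 1.5-fold, and with cells weighted equally Lgr5 was at a log2 ratio of -0.20 in place of 0.35.

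Olfm4 (ENSRNOG00000013280), a secreted glycoprotein that marks stem cells in the human gut, lay in few cells at high counts. Sub-cluster E0 held 83.8% of epithelial Olfm4 UMIs in maternal obesity and 84.5% in control. Even there it was seen in only 44 of 72 cells of maternal obesity and 145 of 402 of control, with up to 159 UMIs in 1 cell of maternal obesity and 132 in 1 of control. Its level in E0 was 558 CPM in maternal obesity (1365 UMIs) and 196 CPM in control (2088 UMIs), 2.85-fold higher (2.66 to 3.05), beside 7.16% of 10705 genes at least 1.5-fold higher in E0. UMIs of 1 cell are not independent, so this interval is narrower than the spread between cells. In E1, led by Mcpt8l3, Prg2, Mcpt8l2 and Srgn, genes known from mast cells and granulocytes, it was 6.92-fold higher (5.46 to 8.79), at 334 CPM in 31 cells of maternal obesity and 48.3 CPM in 190 cells of control, beside 14.6% of genes higher. In maternal obesity 79 of its 178 UMIs in E1 came from 1 cell, and the part of other cell types in E1 was not tested. In E4 and E9, where Cps1 and Ccl25 were among the leading genes, Olfm4 had 2 and 3 UMIs in maternal obesity and 3 and 1 in control. Outside the epithelium a small unnamed cluster, C31, led by S100a8, S100a9 and Camp, genes of neutrophil granules, had Olfm4 at 3560 CPM in maternal obesity (508 UMIs in 33 cells) and 3108 CPM in control (716 UMIs in 49 cells). Those cells held 20.7% of all Olfm4 UMIs of the maternal obesity library and 20.9% of the control library, so Olfm4 alone does not mark epithelial cells in these data.

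**Figure D4:**
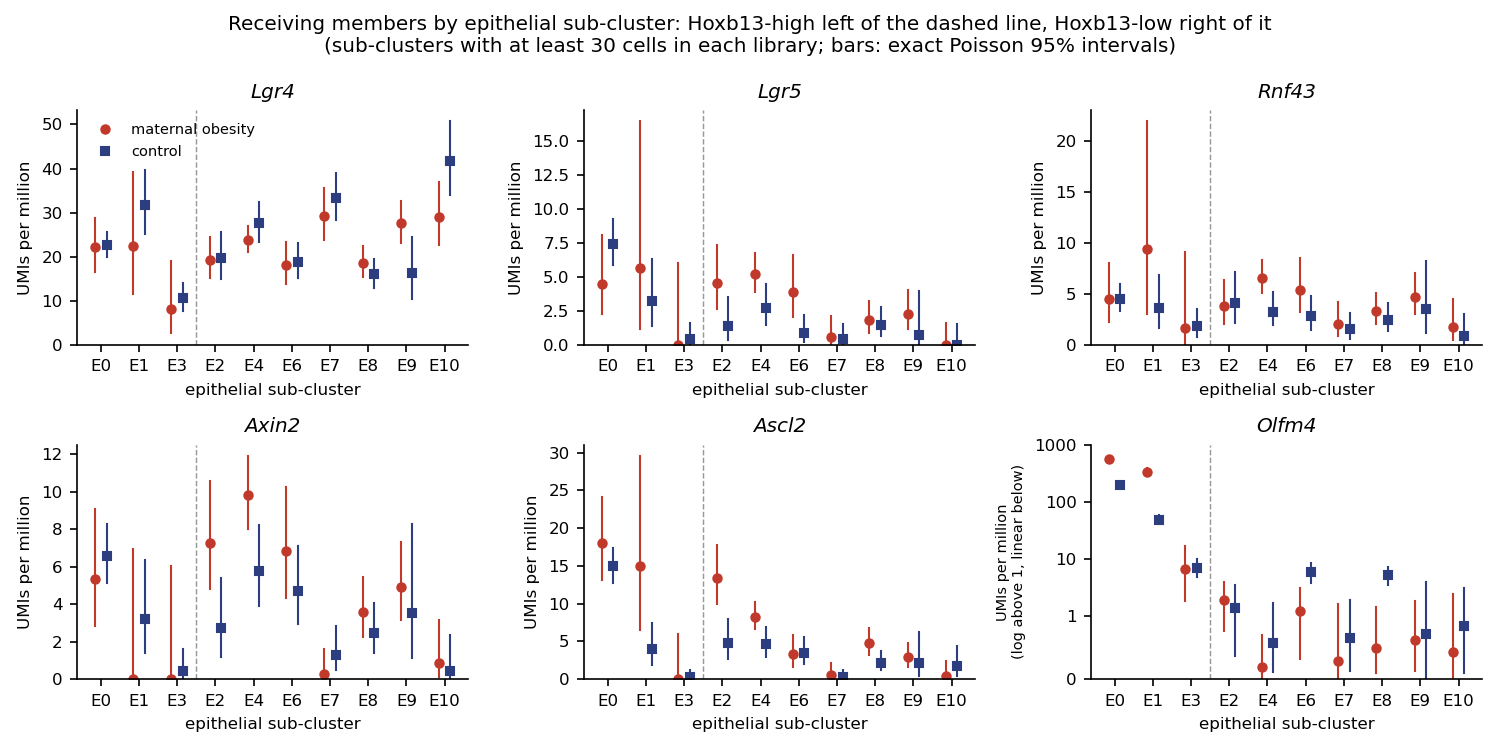
Levels of the 6 measured receiving genes in CPM (vertical axes, that of Olfm4 logarithmic above 1) in 10 epithelial sub-clusters of 30 or more cells per library, maternal obesity as red circles left of control as blue squares, with exact Poisson intervals and a dashed line between Hoxb13-high and Hoxb13-low sub-clusters. Olfm4 is higher in E0 and E1 than in the other 8, Lgr5, Ascl2 and Axin2 occur on both sides of the line, and Lgr4 is present in all 10.

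The epithelium was also split by the Hoxb13 level of its sub-clusters, after the data had been seen, and several ratios then differed from the pooled ones. Sub-clusters E0, E1, E3, E5, E11, E14 and E15 had Hoxb13 at 168 CPM or more over both libraries, and the other 7 at 7.58 CPM or less. The Hoxb13-high side held 189 of 1294 epithelial-like cells in maternal obesity and 1429 of 2586 in control, and the Hoxb13-low side 1105 and 1157 cells. On the Hoxb13-high side 2 of the 6 receiving genes were at least 1.5-fold higher and 0 lower, beside 9.82% of 11980 genes higher and 7.42% lower. These were Olfm4, at 338 CPM in maternal obesity and 93.3 CPM in control (3.62-fold, 3.39 to 3.85), and Ascl2, at 12.2 and 7.001 CPM (1.74-fold, 1.27 to 2.35). Within E0, with 44 and 159 of these Ascl2 UMIs, it was at 17.99 and 14.9 CPM. E0 held 2445892 of the 4764413 UMIs of this side in maternal obesity and 10663458 of 25711906 in control. The part of this mix of sub-clusters was not tested. Lgr5 was at 3.15 CPM in maternal obesity and 3.77 CPM in control (0.835-fold, 0.450 to 1.45), and Axin2 at 2.73 and 3.58 CPM (0.763-fold, 0.391 to 1.37), on 15 and 13 UMIs in maternal obesity. Position genes differed on this side too, with Hoxd12, a posterior gene, at 0.630 CPM in maternal obesity and 5.02 CPM in control. The part of position in these values was not tested.

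On the Hoxb13-low side 4 of the 6 were at least 1.5-fold higher and 1 lower, beside 13.1% of 12668 genes higher and 5.53% lower. Lgr5 was at 3.15 CPM in maternal obesity and 1.24 CPM in control (2.54-fold, 1.71 to 3.85), Ascl2 at 5.64 and 2.74 CPM (2.05-fold, 1.57 to 2.72), Axin2 at 5.87 and 3.18 CPM (1.84-fold, 1.43 to 2.40) and Rnf43 at 4.50 and 2.60 CPM (1.73-fold, 1.30 to 2.33). The lower one was Olfm4, at 0.613 CPM in maternal obesity and 2.60 CPM in control (0.236-fold, 0.138 to 0.389), on 21 and 71 UMIs. Mesenchymal cells had Olfm4 at 1.27 CPM in maternal obesity and 2.71 CPM in control, and macrophage-like cells at 0.835 and 1.78 CPM. The pooled Hoxb13-low levels were thus no higher than the mesenchymal ones and are not separated from background. In control they were uneven, with 27 Olfm4 UMIs in 11 of 156 cells of E6 and 31 in 11 of 206 cells of E8. No direction of Olfm4 expression is read from this ratio. Lgr4 was at 23.3 and 24.3 CPM (0.961-fold). Axin2 was thus above 1.5-fold on the Hoxb13-low side and below 1 on the other, where its interval includes 1. In the pooled epithelium Olfm4 was at 0.896-fold (0.842 to 0.955). None of these differences between the sides was tested. The Hoxb13-low cells themselves still differed in position genes. Ccl25 was at 19.0 CPM in maternal obesity and 1.94 CPM in control there, and Cps1 at 19.1 and 0.622 CPM. In E4, which held much of the Lgr5, Axin2 and Ascl2 of maternal obesity, Cps1 was at 33.0 CPM in maternal obesity and 1.53 CPM in control. The part of position in the Hoxb13-low differences was not tested.

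**Figure D5:**
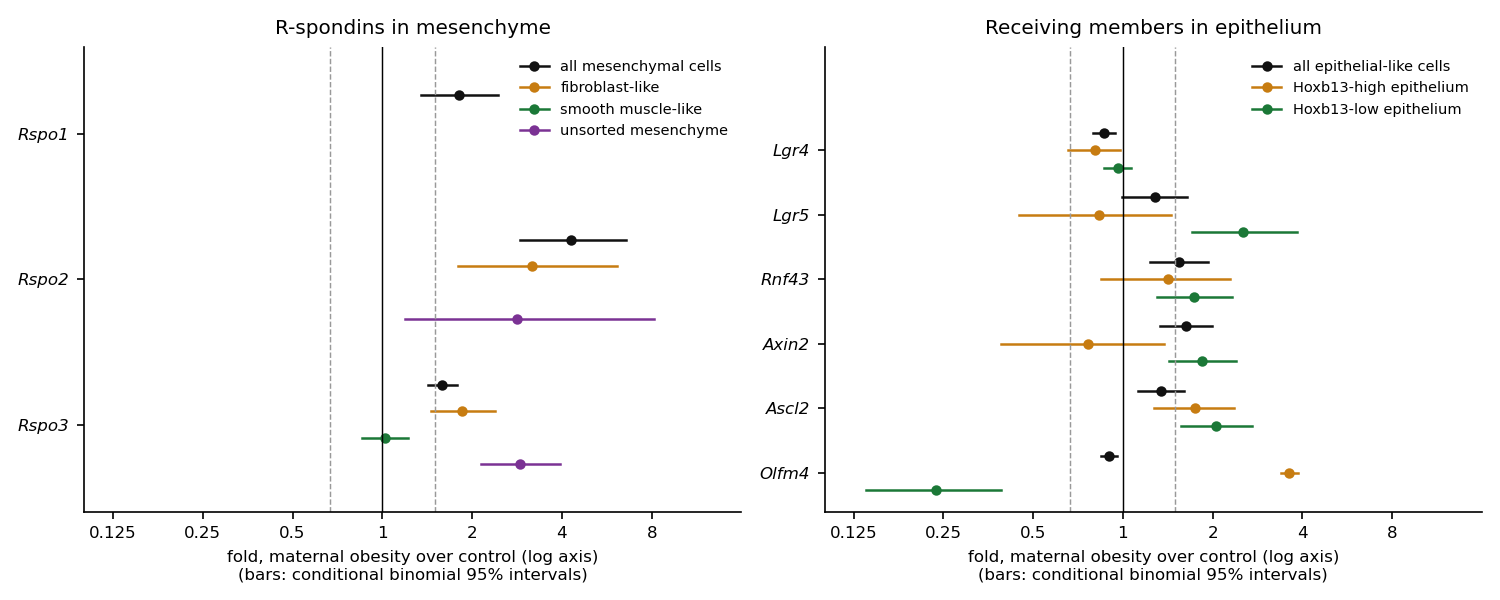
Fold difference of maternal obesity over control (horizontal axis, logarithmic) with conditional binomial intervals, for R-spondins in mesenchymal classes (left) and receiving genes in all, Hoxb13-high and Hoxb13-low epithelium (right); dashed lines mark 1.5-fold each way, and genes with under 20 UMIs in a class are not drawn. Rspo3 sits at 1.02-fold in smooth muscle-like cells and 2.89-fold in unsorted mesenchyme, and Olfm4 at 3.62-fold on the Hoxb13-high side. The 0.236-fold of Olfm4 on the Hoxb13-low side compares pooled levels that are not separated from background.

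Further gene lists, chosen like the niche list with earlier results of these data known, were read in the pooled epithelium, where the median log2 ratio of all 13445 measured genes was 0.05, with 11.8% higher and 11.9% lower. Among receptor and signal transduction partners, 3 of 24 measured genes were at least 1.5-fold higher and 0 lower (median log2 ratio 0.00). Ctnnb1, which encodes beta-catenin, was at 159 CPM in maternal obesity and 81.8 CPM in control (1.95-fold, 1.87 to 2.03), and Btrc, an adaptor for its breakdown, at 8.08 and 5.15 CPM. The kinases Gsk3a and Csnk1a1 were each at 0.99-fold, and the surface proteoglycan Sdc4 at 0.889-fold. Among other Wnt target genes 6 of 17 were higher and 1 lower (median log2 ratio 0.15). The feedback inhibitors Nkd1 and Nkd2 were higher, Nkd1 at 2.56 CPM in maternal obesity and 0.962 CPM in control and Nkd2 at 3.72 and 1.73 CPM. The abundant Myc, Sox9 and Cdca7 were at 1.04-fold, 1.05-fold and 1.31-fold, Bambi at 0.793-fold, and Tnfrsf19 was lower at 0.580-fold. Among other crypt stem cell genes 4 of 15 were higher and 5 lower (median log2 ratio -0.10). Hopx was at 78.2 CPM in maternal obesity and 35.7 CPM in control and the RNA binding protein gene Msi1 at 1.85 and 0.641 CPM. The ion transporter gene Slc12a2 was at 121 CPM in maternal obesity and 264 CPM in control, the matrix protein gene Smoc2 at 6.67 and 13.95 CPM, Ly6e at 30.9 and 56.2 CPM and Igfbp4 at 39.0 and 59.7 CPM. These lists were not split by position, which differed between the pooled epithelia as given above.

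The genes most like each member in pattern were found over 20 points, the 10 classes with at least 50 cells in each library taken once per library, among 10613 genes, as a Pearson correlation of log2 CPM given as a description. For Rspo3 they were C1qtnf7 (r = 0.96), Colec10 (0.95) and Thbs3 (0.94). For Ascl2 they were Me3, Cxcl11 and Epha1 (0.91, 0.90 and 0.90), and for Lgr4 Nhsl1 and Nme4 (0.90 and 0.87). Axin2 was closest to Traf3ip2, Fsip1 and Slc25a40 (0.87, 0.86 and 0.86) and Olfm4 to Rab25, Sh3yl1 and Tmprss4 (0.86, 0.86 and 0.85). The points share libraries and class totals, and Rspo1, Rspo2, Lgr5 and Rnf43 had too few UMIs for this.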

How the data were processed

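Single-cell RNA of fetal colon was read from 2 matrices of raw UMI counts per gene and barcode, as the authors deposited them, with no normalisation. Cell Ranger 2.1.1 was used per the submitters' processing notes and 6.1.2 per the file headers, with the genome build not given in the sources used here. Members and lists were chosen with earlier results of these data known.

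Barcodes were kept from 500 genes upwards and up to 20% mitochondrial UMIs. Scrublet in scanpy 1.11.5, with 0.8% doublets expected per 1000 barcodes, called 134 maternal obesity and 60 control cells (1.85% and 0.872%, against 7.77% and 7.12% expected). These were removed, and others may have stayed. Clustering used 2000 variable genes, with the members and listed pathway genes held out, 30 principal components, 15 neighbours and Leiden resolution 1, and gave 33 clusters. Names came from marker lists by a rule set after the clusters were seen (at least 3 markers higher, mean log2 difference 1.5, lead of 0.5 over the next list). Mesenchymal clusters that met no single list are called unsorted and were counted with the mesenchyme, an addition to the planned union of named classes. Epithelial sub-clusters with at least 3 listed markers of a non-epithelial type among their 10 leading genes were set aside (E12, E13 and E16). E1 (Mcpt8l3, Prg2), E2 (Hbe1, Hbz) and E6 (Cd74, RT1-Da, Ccl5), with other cell types' genes in the lead, met no such count and were kept.

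UMIs were summed per class and library. Intervals at 95% are Poisson for levels, Clopper-Pearson for shares and conditional binomial for ratios, and a count of 0 has the limit of 3 counts. The fold calls were run on simulated independent Poisson counts. These had no clumping of UMIs in single cells and no library effect, so the run says nothing about either. List medians add 0.5 to each sum. Named genes are the members and, of each list, the 4 with the most UMIs and the 2 farthest past 1.5-fold each way among those with at least 100 UMIs; some genes that these rules name are not reported here. The Hoxb13 split (50 CPM over both libraries), the equal weighting of clusters and the omission of unsorted clusters or of E1, E2 and E6 were chosen after seeing the data. The other alternatives covered filters, doublets, clustering, scaling and thinning.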

Additional observations from a re-analysis of the deposited data

Results flagged for a closer look

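Olfm4 gave ratios on opposite sides of 1 in the 2 parts of the epithelium, and both counting intervals exclude 1. It was 3.62-fold higher in maternal obesity in Hoxb13-high sub-clusters and at 0.236-fold in Hoxb13-low ones. The second ratio compares pooled levels of 0.613 CPM in maternal obesity and 2.60 CPM in control, no higher than the 1.27 and 2.71 CPM of mesenchymal cells. These levels are not separated from background, and no opposite direction of Olfm4 expression is read from the ratio. The difference between the sides was not tested, since there is 1 library per group.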

How the results depend on the processing

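Each group is 1 library, so no value separates maternal obesity from the litter, the stretch of colon or the handling of that library, and depth limits Lgr5, Rnf43 and Axin2 to between 123 and 214 UMIs per library in epithelial-like cells. No paired analysis was possible because each group has 1 library and the replicate numbers are not shared, and no replicate could be left out. The summed R-spondins, at a log2 ratio of 0.82 in mesenchyme, ran from 0.68 to 0.92 over 12 other settings and were at 0.78 and 0.79 in the 2 added after seeing the data. Rspo3 by itself was under 1.5-fold with totals scaled by the median gene (0.52) and with unsorted clusters left out (0.55). Rspo2 by itself ran from 1.92 to 2.27 over the alternatives not added after seeing the data. With clusters weighted equally it was at 0.72, below its counting interval. The count of receiving genes past 1.5-fold was 2, and 1 with totals scaled by the median gene and 1 with cells weighted equally. Of the settings added after seeing the data it was 4 with sub-clusters weighted equally (Lgr5, Rnf43, Ascl2 and Olfm4). It was 5 in Hoxb13-low sub-clusters with or without E2 and E6, where pooled Olfm4 was not separated from background. It was 2 in Hoxb13-high sub-clusters with or without E1, and 2 in all epithelial-like cells without E1, E2 and E6. Axin2, at a log2 ratio of 0.70, was at -0.39 in Hoxb13-high sub-clusters and at -0.24 in those without E1. Of the members past 1.5-fold, Axin2 alone changed sign. Among those under it, Olfm4 (-0.16) was at 1.85 in Hoxb13-high sub-clusters, 1.78 in those without E1 and 1.76 with sub-clusters weighted equally, and Lgr5 (0.35) was at -0.26, -0.43 and, with cells weighted equally, -0.20. Of 159 alternative values of single members, 135 stayed within the counting interval of the reported value. The setting without a UMI minimum is counted there and among the 12 other settings, and it repeats the reported values by construction. The share of epithelial-like cells with Lgr5 in maternal obesity, 1.04% at 3000 UMIs, was 0.395% at 1500 UMIs and 7.19% without thinning. It was 2.26% in Hoxb13-high sub-clusters (177 thinned cells) and 2.01% in those without E1. The control share, 0.776%, was 4.18% without thinning and 0.891% in Hoxb13-high sub-clusters (1347 thinned cells). Thinned shares and summed UMIs (log2 ratio -0.26) thus pointed different ways for Lgr5 on that side. Thinning itself lowers these shares, and each thinned share is also 1 random draw, with the averages over all thinnings to 3000 UMIs given above. The cause of the other shifts was not tested. The counts for the 4 gene lists stayed within 1 of the reported ones over 8 alternatives.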
